A study of Mus musculus with 6 samples.

Results

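Cish, Socs1 and Socs3 encode members of the family of suppressors of cytokine signalling, and their genomic windows held 20 of the 8925 T-bet ChIP-seq peaks in the 3 peak lists of the series. The T-bet knockout (KO) list had no peak in any of the windows, the wild-type (WT) replicate 1 list had 17 and the WT replicate 2 list had 3. The windows were fixed stretches of the mouse build mm9: 150 kb on chromosome 9 from 107130000 to 107280000 for Cish, 220 kb on chromosome 16 from 10680000 to 10900000 for Socs1, and 180 kb on chromosome 11 from 117740000 to 117920000 for Socs3. Every peak that reached into one of them was taken, whatever its score. In WT replicate 1 the peaks were 10 at Cish, 5 at Socs1 and 2 at Socs3, and in WT replicate 2 all 3 were at Cish.

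Suppressors of cytokine signalling are made in response to cytokines and then dampen the same signal. Cytokine receptors use JAK kinases to phosphorylate STAT transcription factors; STATs in turn switch on the genes of these suppressors, which closes a negative feedback loop. The protein of Cish, known as CIS, binds activated cytokine receptors, and the gene is a target of STAT5, the main STAT of IL-2 signalling. SOCS1 inhibits JAK kinases and restrains interferon-γ and other cytokine signals, and SOCS3 inhibits signalling from receptors that contain gp130. T-bet, a member of the T-box family of DNA-binding proteins, directs the T helper 1 fate and can also be expressed by regulatory T cells.

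The series mapped T-bet binding in induced regulatory T cells (iTreg cells). Of its 6 samples, 3 were ChIP libraries with a peak list each: 1 from T-bet KO cells and 2 from WT cells, all of the Balb/c strain; the 3 input libraries, 1 from KO and 2 from WT cells, were not analysed here. All cells were sorted as naive CD4+ cells (CD25-, CD62L high, CD44 low) from spleens and lymph nodes of mice aged 4 to 10 weeks, activated on plates coated with anti-CD3 and anti-CD28 at 10 µg/ml each, and cultured for 7 days with 33 ng/ml human TGF-β1 and 20 ng/ml IL-2. The 3 ChIP libraries were made with the same rabbit serum against T-bet (9856). The labels do not describe the KO allele, and they do not say whether the WT replicates came from separate mice or cultures or whether animals were pooled. Peak lists give neither the loss of T-bet in the KO cells nor markers of the iTreg state, so neither label could be checked. Read depth is unknown, the lists held 78 peaks in the KO library, 7996 in WT replicate 1 and 851 in WT replicate 2, and peak scores had no stated scale. A missing peak is therefore a site below the calling threshold of that library, not a site shown to be unbound.

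The stretches at or just before the RefSeq start sites of the 3 genes are shown because STATs act on the promoters of this family. They let the letters of T-box and STAT motifs be read directly. They come from the RefSeq promoter table of build GRCm38.p6, not mm9, so their positions cannot be set against those of the peaks, and no peak is placed in or outside a promoter here. Each runs 5′ to 3′ on the strand of the gene. Capitals mark 9-letter STAT matches (TTCNNNGAA, a palindromic pattern) and the 6-letter T-box core (TCACAC, or GTGTGA on the other strand). The Cish stretch (chr9:107296409-107296678, + strand) holds the 250 bases before the start and the first 20 after it. It alone was extended past the start, where both of its STAT matches lie, and it ends with the last of them. The stretches of Socs1 (chr16:10785537-10785786, - strand) and Socs3 (chr11:117969367-117969616, - strand) hold the 250 bases before the start.
Cish: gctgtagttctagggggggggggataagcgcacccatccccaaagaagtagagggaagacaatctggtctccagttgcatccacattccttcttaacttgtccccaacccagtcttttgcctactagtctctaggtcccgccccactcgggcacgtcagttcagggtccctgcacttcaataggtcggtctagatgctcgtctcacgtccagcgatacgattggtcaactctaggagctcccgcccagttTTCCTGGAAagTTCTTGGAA
Socs3: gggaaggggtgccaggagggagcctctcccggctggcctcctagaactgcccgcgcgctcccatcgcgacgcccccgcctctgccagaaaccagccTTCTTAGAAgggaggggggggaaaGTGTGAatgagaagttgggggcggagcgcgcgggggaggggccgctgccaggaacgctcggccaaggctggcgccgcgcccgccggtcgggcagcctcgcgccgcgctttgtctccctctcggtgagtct
Socs1: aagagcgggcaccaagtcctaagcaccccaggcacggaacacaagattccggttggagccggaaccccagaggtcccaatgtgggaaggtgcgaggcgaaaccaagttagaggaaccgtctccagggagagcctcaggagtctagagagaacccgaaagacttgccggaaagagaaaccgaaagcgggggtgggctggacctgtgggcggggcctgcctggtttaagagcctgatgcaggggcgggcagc

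The Cish stretch carried a pair of STAT matches, TTCCTGGAA at bases 1 to 9 and TTCTTGGAA at bases 12 to 20 counted from the start site. The Socs3 stretch carried 1 STAT match, TTCTTAGAA, at bases -154 to -146, and 1 T-box core at bases -130 to -125. The T-box core was not in the 300-base Cish promoter, and neither motif was in that of Socs1. Of all 32851 promoters of 300 bases in the table, 8.30% held the STAT pattern, 0.457% held it at 2 or more places, and 14.5% held the T-box core on either strand. The looser STAT spacing, TTCNNNNGAA, was in none of the 3 promoters and in 6.95% of all. Among 23 other feedback and JAK-STAT genes, 15 had a promoter in the table; Socs4 and Stat5a held the T-box core, none held the 9-letter STAT pattern, and Stat2 held the looser spacing. These matches describe letters and do not show that a factor was bound there.

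Cish had the only sites of the 3 windows that were present in both WT libraries. At 3 places, 3 WT replicate 1 peaks were met by 3 WT replicate 2 peaks over at least 1 bp, and the KO list had no peak at any of them. Over the whole WT replicate 1 list, 9.08% of peaks met these same conditions and 9.50% were met by WT replicate 2 whether or not a KO peak was there. The sites are called A, B and C here, in the order of their positions. Site A lay on chromosome 9 from 107198011 to 107198315 in WT replicate 1, with a score of 155, and from 107197923 to 107198310 in WT replicate 2, with a score of 88.8. Site B ran from 107205429 to 107205821 in WT replicate 1, with a score of 417, and from 107205364 to 107205967 in WT replicate 2, with a score of 204. Site C ran from 107215021 to 107215525 in WT replicate 1, with a score of 435, and from 107215115 to 107215549 in WT replicate 2, with a score of 77.1. Site C had the highest WT replicate 1 score and the lowest WT replicate 2 score of the 3, and site B was high in both lists.

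**Figure D1:**
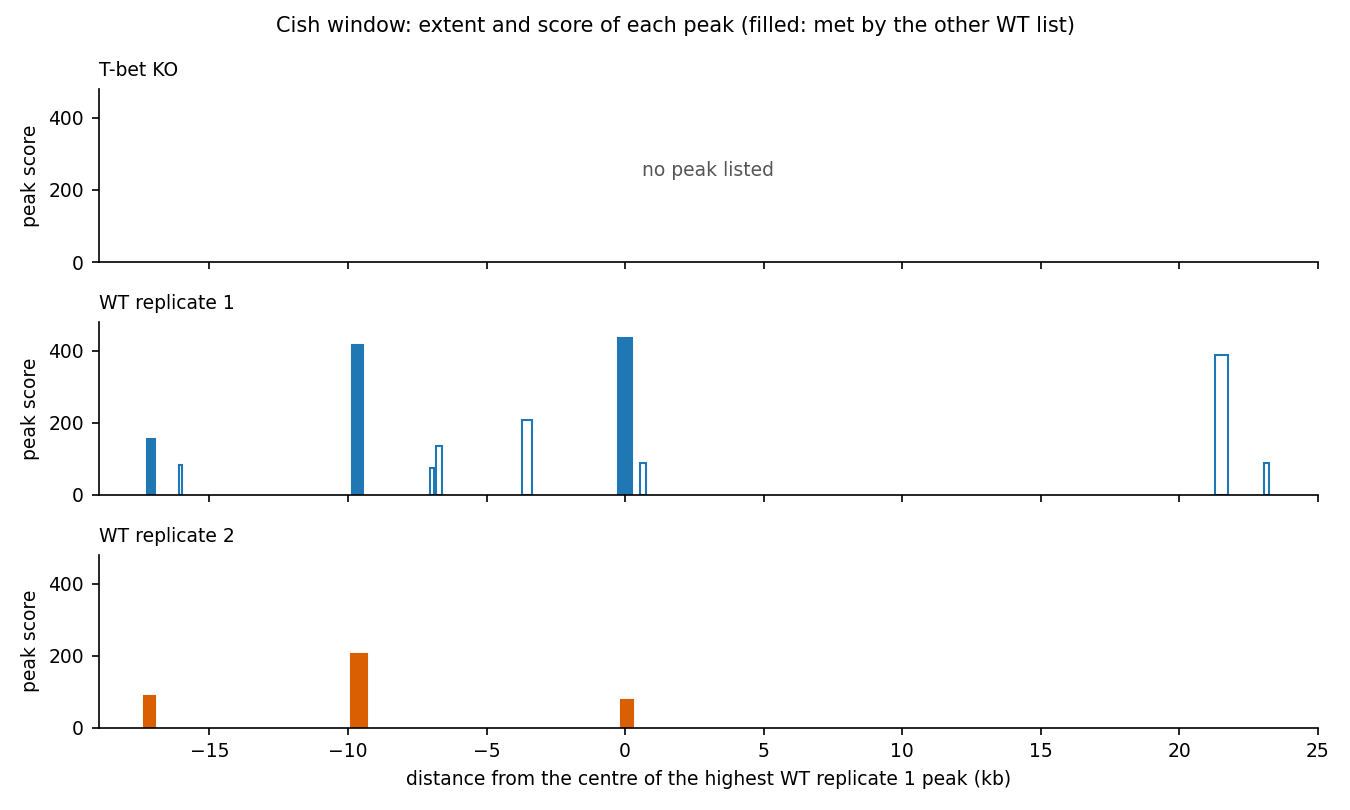
Peaks of the Cish window in the KO library (top) and the WT libraries (below); the horizontal axis is the distance in kb from the centre of the highest WT replicate 1 peak, each bar spans a peak, its height is the peak score, and filled bars were met by the other WT list. The KO panel is empty, 3 of the 10 WT replicate 1 bars are filled, and the 3 WT replicate 2 bars sit on those 3 sites.

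The paired peaks were chosen by their overlap, so their closeness in position is a description. They shared 300, 393 and 411 bp at sites A, B and C. That was 98.4%, 100% and 81.4% of the WT replicate 1 peak and 77.3%, 65.1% and 94.5% of the WT replicate 2 peak. Midpoints in WT replicate 2 minus those in WT replicate 1 were -46.5, 40.5 and 59.0 bp. Over all 760 overlapping pairs of the 2 WT lists, the median distance between midpoints was 31.0 bp, and the median overlap was 95.9% of the WT replicate 1 peak and 82.5% of the WT replicate 2 peak. The order of the 3 sites by score differed between the WT lists. Site C ranked 242 of 7996 in WT replicate 1 and 746 of 851 in WT replicate 2. Site B ranked 268 in WT replicate 1 and 115 in WT replicate 2, and site A ranked 2181 and 587. Site B was thus within the top 3.35% of the WT replicate 1 list and the top 13.5% of the WT replicate 2 list, while site C was within the top 3.03% and the top 87.7%.

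The other 7 WT replicate 1 peaks of the Cish window had no WT replicate 2 counterpart, and 1 of them was strong. The peak from 107236573 to 107237032 had a score of 389 and a width of 460 bp and ranked 317 of 7996. Of the 318 WT replicate 1 peaks with at least its score, 184, or 57.9%, were met by WT replicate 2 and the others were not. A peak from 107211556 to 107211896 scored 207 and one from 107208448 to 107208669 scored 136, and the remaining 4 scored 74.5 to 89.2. Median scores in WT replicate 1 were 417 for the 3 Cish peaks that were met and 89.2 for the 7 that were not, and median widths were 393 and 220 bp. Met peaks were also stronger and wider over the whole list. There the 760 met peaks had medians of 261 and 311 bp, against 108 and 175 bp for all 7996.

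The Cish peaks lay close together. Joined where neighbours were at most 10 kb apart, 8 of the 10 WT replicate 1 peaks formed 1 cluster of 18.0 kb, from 107198011 to 107216013, that held all 3 WT replicate 2 peaks and no KO peak. Peaks covered 12.5% of this stretch in WT replicate 1. Some neighbours in it were only 84 and 268 bp apart. Merging peaks within 500 bp lowered the WT replicate 1 count of the Cish window from 10 to 8. The cluster and tile counts given here use unmerged peaks. In WT replicate 1 sites A and B were 7.11 kb apart with 1 weaker peak between them, and sites B and C were 9.20 kb apart with 3 peaks between them. In WT replicate 2 the same gaps were 7.05 and 9.15 kb, with none between. The remaining 2 peaks, the strong one described above and one with a score of 89.2, lay beyond a gap of 20.6 kb. Of the 6015 clusters that the WT replicate 1 list formed at 10 kb, 4768 were single peaks, 11 had 8 or more peaks with the Cish cluster among them, and 6 had more. At least 3 WT replicate 2 peaks were held by 15 clusters, and 3 clusters met both counts.

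The count depended on the distance used to join peaks, a choice made after seeing the data. At 5 kb the largest Cish cluster held 6 WT replicate 1 and 2 WT replicate 2 peaks over 10.6 kb. There 18 clusters had at least as many WT replicate 1 peaks, 59 had at least as many WT replicate 2 peaks, and 4 met both counts. At 25 kb all 10 WT replicate 1 peaks joined over 40.5 kb with 3 WT replicate 2 peaks. Here 15 clusters had at least as many WT replicate 1 peaks, 32 had at least as many WT replicate 2 peaks, and 8 met both counts. When the genome was cut into 17710 tiles of 150 kb, the length of the Cish window, 28 tiles (0.158%) held 10 or more WT replicate 1 peaks, 48 (0.271%) held 3 or more WT replicate 2 peaks, and 13 met both counts. Tiles have fixed edges whereas the window was laid around a gene, so the ranking is a description.

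**Figure D2:**
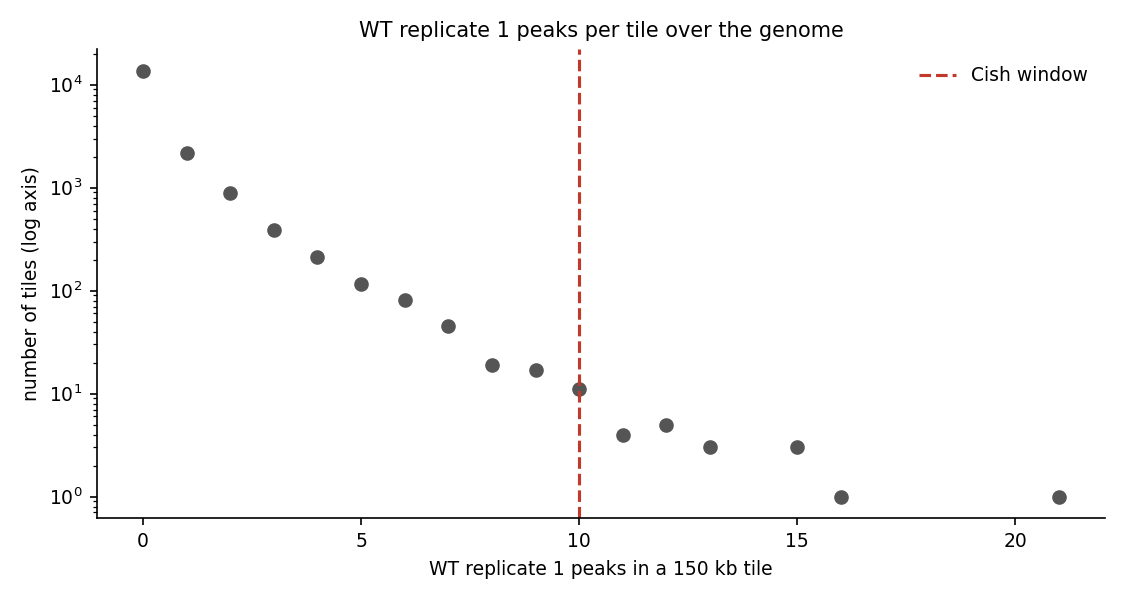
Number of 150 kb tiles of the genome (vertical, log axis) by the number of WT replicate 1 peaks in the tile (horizontal), with the 10 peaks of the Cish window as a dashed line. Most of the 17710 tiles (13733) had no peak, and 28 had 10 or more.

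Socs1 had 5 peaks in WT replicate 1, none in the KO library and none in WT replicate 2. Over the whole WT replicate 1 list, 9.50% of peaks were met by WT replicate 2 and 0.550% by a KO peak. Only 618 of 12079 tiles of 220 kb held a WT replicate 2 peak, so most stretches of this length were empty in that list. The strongest Socs1 peak, on chromosome 16 at 10786389 to 10786710 and 322 bp wide, scored 254 and ranked 868 of 7996, in the top 10.9%. The next peak, from 10782060 to 10782219, lay 4.17 kb before it with a score of 89.8. The others ran from 10702594 to 10702756, from 10754768 to 10754912 and from 10835047 to 10835171, with scores of 89.1, 73.6 and 84.8. They were spread over the window, with gaps of 27.1 to 52.0 kb, and at 10 kb the largest cluster of the window had 2 peaks. Except for the strongest, all Socs1 peaks scored below the median of the WT replicate 1 list, 108.

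Socs3 had 2 peaks in WT replicate 1, none in the KO library and none in WT replicate 2. The whole-list shares of 9.50% met by WT replicate 2 and 0.550% by KO apply here too. Only 621 of 14760 tiles of 180 kb held a WT replicate 2 peak. The stronger Socs3 peak, on chromosome 11 at 117830620 to 117830860, scored 165 and ranked 2004 of 7996. The one from 117851582 to 117851767, 20.7 kb further on, scored 70.3 and ranked 7991, among the lowest of the list. The Socs3 window thus had 1 peak above the list's median score and 1 at the low end of the list, since no WT replicate 1 score was below 70.13. The WT replicate 1 list had a peak 3.78 kb below the lower edge of this window, from 117736149 to 117736220 with a score of 137, and one 10.6 kb below the lower edge of the Socs1 window, from 10669112 to 10669404 with a score of 217. At Cish the nearest WT replicate 1 peaks outside the window were 406 kb below and 177 kb above it.

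**Figure D3:**
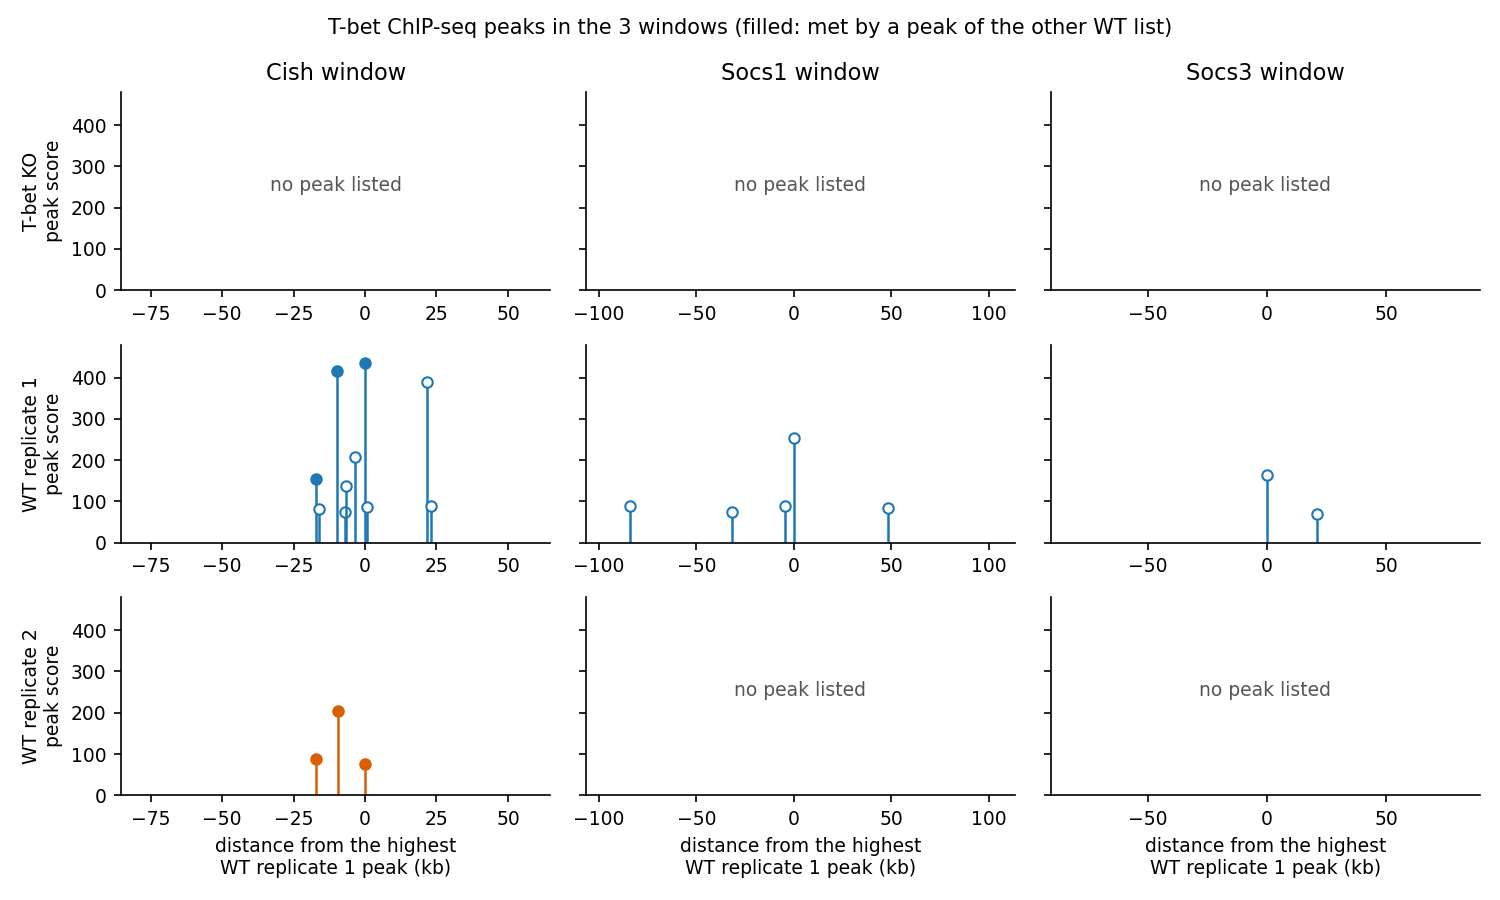
Score of each peak (vertical) against its distance in kb from the highest WT replicate 1 peak of the window (horizontal), for the KO library (top row), WT replicate 1 and WT replicate 2, and for Cish, Socs1 and Socs3 from left to right; filled points were met by the other WT list. Only the Cish window has WT replicate 2 peaks, and no window has a KO peak.

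Peak density was set beside that of the whole genome within each list. The Cish window had 66.7 peaks per Mb in WT replicate 1 (95% exact Poisson interval 32.0 to 123) and 20.0 in WT replicate 2 (4.12 to 58.4), against 3.01 and 0.321 over the genome and 3.68 and 0.371 over chromosome 9. The Socs1 window had 22.7 peaks per Mb in WT replicate 1 (7.38 to 53.0), against 3.12 over chromosome 16. The Socs3 window had 11.1 (1.35 to 40.1), against 5.10 over chromosome 11, and its interval included the density of the chromosome and of the genome. The density in WT replicate 1 was highest at Cish and lowest at Socs3, and the differences between the windows were not tested. Tiles of 220 kb with at least 5 WT replicate 1 peaks, the Socs1 count, made up 3.21% of the genome, and tiles of 180 kb with at least 2, the Socs3 count, made up 11.9%. These intervals cover counting error over peaks only, peaks near one another are not independent, and the windows were chosen with earlier results of these lists known.

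The share of WT replicate 1 peaks met by WT replicate 2 was 3 of 17 in the windows, or 17.6% (95% exact binomial interval 3.80 to 43.4%), and 9.50% over the whole list. The interval includes the share of the whole list. Like the other binomial intervals here, it treats peaks as independent, which peaks near one another are not. At Cish the share was 3 of 10, or 30.0% (6.67 to 65.2%). At Socs1 it was 0 of 5 (0 to 52.2%) and at Socs3 0 of 2 (0 to 84.2%). Each of these intervals also includes the 9.50% of the whole list, and differences between the windows were not tested. In the other direction, 3 of 3 WT replicate 2 peaks of the windows were met by WT replicate 1, where 85.4% of the whole WT replicate 2 list were. The list was also split by score into 10 deciles, with decile 10 the highest. Of the 3 window peaks in decile 10, 2 were met, beside 47.1% of all peaks there. Of the 2 in decile 8, 1 was met, beside 8.28%. None of the 2 window peaks in decile 9 was met, beside 16.6% of all peaks there, nor was the 1 in decile 7, beside 5.12%. Deciles 1, 3 and 4 held 3 window peaks each and none was met, where 2.05 to 2.62% of all peaks were.

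**Figure D4:**
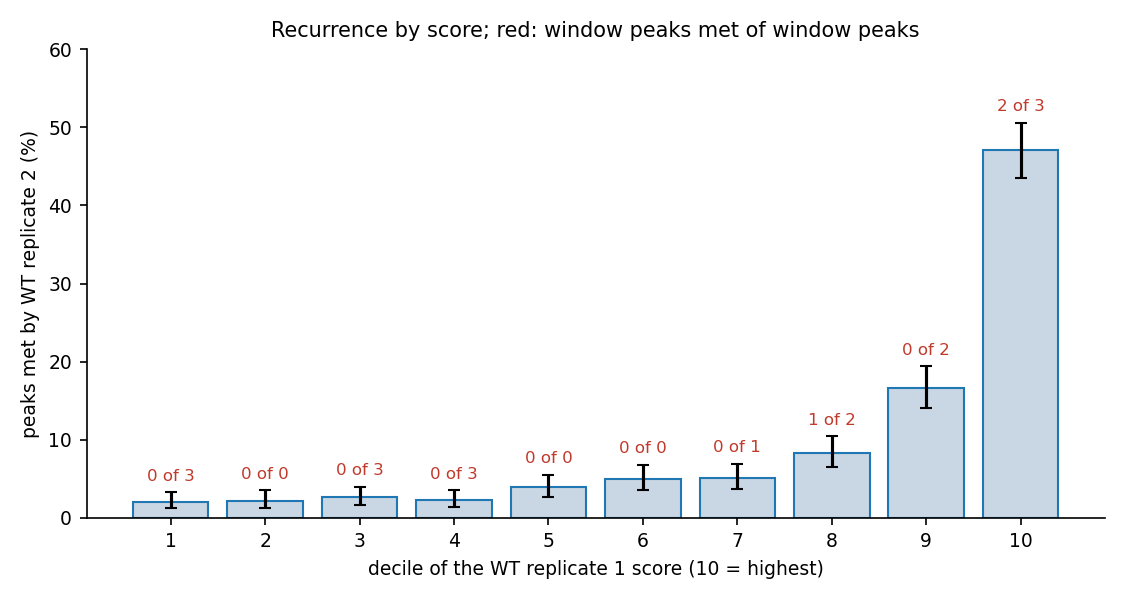
Share of WT replicate 1 peaks met by a WT replicate 2 peak (bars, %) in each decile of the WT replicate 1 score, with exact 95% binomial intervals; red figures give the window peaks met of the window peaks in that decile. The share is 47.1% in decile 10, where 2 of 3 window peaks were met.

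Scores of the window peaks spread over most of the range of ranks in their lists. In WT replicate 1 the median score was 89.8 over the 17 window peaks and 108 over the whole list, and 8 of the 17 were above the list's median. The 10 Cish peaks had a median of 146, with 6 above the list's median. In WT replicate 2 the median was 88.8 over the 3 Cish peaks and 108 over the whole list, and 1 of the 3 was above it. Median width in WT replicate 1 was 220 bp over the window peaks and 175 bp over the whole list, and in WT replicate 2 it was 435 bp over the Cish peaks and 353 bp over the whole list.

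**Figure D5:**
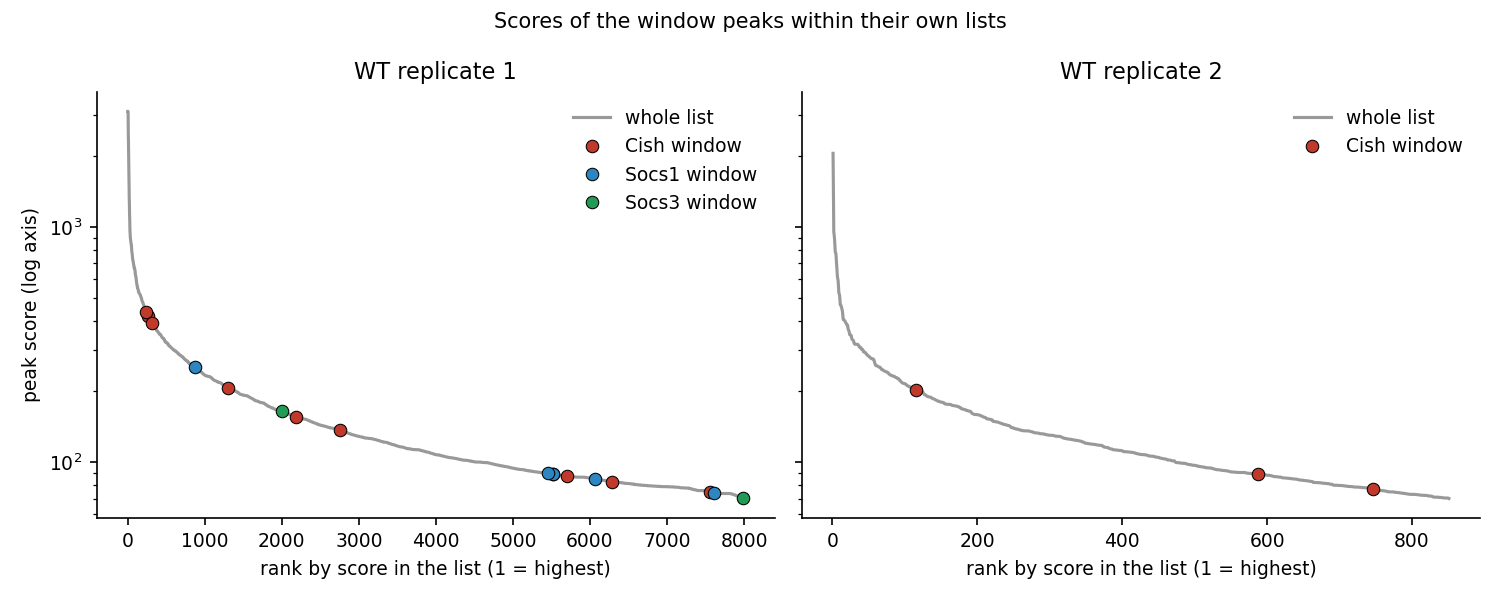
Peak score (vertical, log axis) by rank within the WT replicate 1 list (left) and the WT replicate 2 list (right), with the peaks of the windows as points on the grey curve of the whole list. In WT replicate 1, 3 Cish peaks sit among the first 317 ranks, and the lowest Socs3 peak sits at rank 7991.

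The KO library, precipitated with the same serum from cells labelled T-bet KO, gave no peak in the windows. Its nearest peaks were 18.7 Mb from the Cish window, 46.3 Mb from the Socs1 window and 16.2 Mb from the Socs3 window. Over the genome this list had only 0.0294 peaks per Mb, so distances of many Mb are common in it. The KO list had 4 peaks on chromosome 9, 2 on chromosome 16 and 12 on chromosome 11. Over the whole lists 0.550% of WT replicate 1 peaks and 5.41% of WT replicate 2 peaks were met by a KO peak, and the 0 of 17 and 0 of 3 in the windows are near these low shares. With 1 KO library, genotypes could not be tested against each other. In their deposited names, the KO and WT replicate 2 lists share a leading number that WT replicate 1 lacks, and its meaning is not stated.

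Other genes lie beside the 3 members, and a peak in a window is not thereby a peak of the gene that names it. In the RefSeq order of GRCm38.p6, the nearest protein-coding neighbours are Mapkapk3 and Hemk1 for Cish, Clec16a and Tnp2 for Socs1, and Tha1 and Pgs1 for Socs3. Mapkapk3 encodes a kinase downstream of p38, and Tnp2 a transition protein of sperm chromatin. Distances from the peaks to these genes, and to the start sites of the 3 members, need an mm9 annotation and are not given.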

How the data were processed

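T-bet ChIP-seq peak lists of 3 libraries were used: 1 T-bet KO and 2 WT, grouped by their titles. CASAVA, Bowtie2, MACS 1.4 and build mm9 are listed in the submitters' processing notes; their settings, the read filters and the control libraries are not stated. Each deposited list belongs to 1 library and has 5 columns without a header: chromosome, start, end, name and score. The score is the authors' value for each peak. It was used to rank, filter and summarise peaks within a list and to draw peak heights. The figures draw the lists on shared score axes, but scores have no known common scale and are not to be compared between lists. Depth is unknown. Starts were counted from 1. Peaks were shared where at least 1 bp overlapped. Chromosome lengths of mm9 came from GenomeInfoDb 1.38.1 (R 4.3.3), and intervals (95%, exact) from scipy 1.17.1 in Python 3.11.15. All peaks of the windows are described. Overlap counting was checked on simulated peaks, where 200 of 200 planted overlaps were found. The members, windows, lists and alternatives were chosen with earlier results of these data known. Promoter sequences and motif letters came from RefSeq tables of GRCm38.p6; no mm9 genome or annotation was used, so peaks near the other genes of the pathway were not counted. No test across samples was possible with 1 KO library. Figures were drawn with matplotlib 3.10.9.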

Additional observations from a re-analysis of the deposited data

How the results depend on the processing

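Of 107 values recomputed under the alternatives, 93 stayed close to the values above (a count within 1.5 times, a density within its interval) and 14 moved. Many of the 93 could not have moved. Overlap rules and extended KO peaks do not enter the window counts or densities, and leaving out 1 WT list does not alter the other. The tally is therefore not a measure of stability. With scores of at least 100, WT replicate 1 kept 8 peaks in the windows (6 at Cish, 1 at Socs1, 1 at Socs3) and WT replicate 2 kept 1. In either direction 1 site was shared, site B of Cish, and WT replicate 1 density was 14.5 per Mb. WT replicate 2 density fell from 5.45 to 1.82 per Mb. It is counted as close only because the interval from 3 peaks is wide, 1.12 to 15.9. These falls follow from removing peaks. Widening the windows by 50 kb raised WT replicate 1 counts to 8 at Socs1 and 5 at Socs3. Leaving out a WT replicate gave 3 to 17 sites without a KO peak, since recurrence can then not be asked. Ranked by width in place of score, the median window peak moved to the top 31.7% in WT replicate 1 and the top 25.1% in WT replicate 2, against 68.2% and 69.0% by score. A reciprocal overlap of 50%, midpoints within 250 bp, KO peaks extended by 1 kb, merging within 500 bp and windows cut by 25 kb left 3 shared sites. The KO list had 0 peaks in the windows under every setting. Its nearest peak to any window was 16.2 Mb away, so no setting used here could have changed that count. No paired analysis was possible because the KO group has 1 library and the input libraries were not analysed here. Depth, which is unknown, limits what an absent peak shows.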
